A study of Homo sapiens with 6 samples.

Results

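The epidermal differentiation complex is a cluster of genes on human chromosome 1 that is used in the last steps of squamous differentiation, and the *S100A* genes lie in and beside it. Members were taken as the protein-coding genes of the count table whose names are those of the *S100A*, *SPRR* or *LCE* families or are *IVL*, *LOR*, *FLG*, *FLG2*, *CRNN*, *RPTN*, *TCHH* or *HRNR*. This gave 52 of the 57905 genes, in 1 stretch of 1651 kb (chr1:151955391-153606568, hg19). They were followed in RT4, an established human bladder cancer line of papillary, non-muscle invasive origin, after knock-down of *LEADR*, the spliced long non-coding RNA of *MIR205HG*, the host gene of miR-205. All cells were of wild type genotype by their label and received 100 pmol of siRNA for 48 h with a lipid reagent, either a control siRNA (Scramble) or 1 siRNA against *LEADR* (LEADR-KD). Poly(A) RNA was sequenced in 3 libraries per group, so a second siRNA sequence is not part of the comparison.

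The proteins of the cluster fall into a few kinds. *IVL* (involucrin), *LOR* (loricrin), the small proline-rich *SPRR* proteins and the late cornified envelope *LCE* proteins are joined by transglutaminases into the cornified envelope, the protein shell of a mature squamous cell, while filaggrin (*FLG*) and its relatives of the fused S100 type fill and coat keratin filaments. The S100 proteins are small calcium-binding dimers that act by binding other proteins, among them annexins. Urothelium does not form a cornified envelope, although squamous differentiation is known in a subset of bladder tumours.

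Libraries held 15706033 to 18960822 counts, and 3 counts corresponded to 0.154 to 0.188 CPM (the count scaled to library size), depending on the library. The share of mitochondrial counts was 11.9% in Scramble 1 and 10.8% in LEADR-KD 1, and 3.06% to 5.73% in the other 4 libraries. *MIR205HG* was at 30.1, 17.3 and 20.7 CPM in Scramble and at 7.08, 11.6 and 5.72 CPM in LEADR-KD (log2 fold change -1.47 ± 0.26 SE, adjusted p = 0.00180), so the targeted gene was lower in each LEADR-KD library. Of 14 urothelial markers 13 passed the filter on low counts, with *KRT19*, *KRT7* and *KRT8* the most abundant of them, whereas the basal keratin *KRT5* had 1 to 6 counts a library and its partner *KRT14* had 7 counts, all in LEADR-KD 1. *KRT6B*, *KRT6C*, *KRT1* and *DSC3* were listed at 0 in all libraries. Of the 13 urothelial markers tested 4 rose, 0 fell and 9 did not pass, with a median log2 fold change of 0.21. Of all tested genes 12.2% rose and 12.1% fell, with a median of -0.01. Of the 12 basal and squamous markers 4 were tested. *CD44* (129 to 138 CPM in Scramble, 175 to 191 CPM in LEADR-KD, adjusted p = 0.00156) and *KRT10* rose, *KRT16* (1.74 to 1.97 CPM against 0.605 to 1.00 CPM, adjusted p = 0.0239) fell, and *TP63* did not pass. All values come from bulk RNA, in which fewer cells of a kind and less RNA per cell cannot be told apart.

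The siRNA is shown because its bases 2 to 8, the seed, can pair with other transcripts. The strand listed by the submitters reads as the *MIR205HG* transcript itself and is held by 13 of its 17 annotated isoforms, so the strand that would pair with the target is its complement. Both are printed 5′ to 3′ with the seed in capitals, counted from the first base printed. Overhanging ends, which would shift the seed, were not taken into account.
siRNA as listed: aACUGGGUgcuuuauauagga
complementary strand: uCCUAUAUaaagcacccaguu
No other annotated gene held the full sequence of either strand. Of the 15 members that could be tested, 14 had no match of 6 or more bases to either seed in an annotated 3′ untranslated region. The exception was *IVL*, which held a 7-base match to each seed (the 6 bases that pair with bases 2 to 7, and an A), shown in capitals with the neighbouring bases.
*IVL*, listed strand, chr1:152884282-152884308, plus strand: tccttacttcCCCAGTAttgaagctga
*IVL*, complementary strand, chr1:152884264-152884290, plus strand: ctattgttacTATAGGAatccttactt
Among all 12092 tested protein-coding genes with such a region, 43.9% held a match of 6 or more bases to the seed of the listed strand and 27.3% to that of the complementary strand. None of the members that rose or fell upon knock-down therefore held a site of this kind in the annotated regions. Listed lengths of these regions were 97 bases for *S100A6*, 146 for *S100A4*, 325 for *SPRR3*, 331 for *S100A2* and 630 for *S100A14*. The shares of all genes were not matched for length, so they do not give the number of matches to expect among the members. Whether either seed acted on the members was not tested. *IVL*, which held such sites in a region of 331 bases, is described below.

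Most of the complex was silent in RT4. Of the 52 members 29 were listed at 0 in all 6 libraries, 8 had between 1 and 28 counts in total, and 15 passed the filter. The genes at 0 included *LOR*, *TCHH*, *RPTN*, *FLG2*, *CRNN*, 16 of the 18 *LCE* genes, all 6 *SPRR2* genes, and *S100A7* (psoriasin) and its copy *S100A7A*. *FLG* had 3, 6 and 12 counts in Scramble and 1, 1 and 5 in LEADR-KD, and *HRNR* (hornerin) had 2, 5 and 3 against 8, 0 and 0. *LCE1E* had 16 counts in all, *LCE1B* and *SPRR4* 1 each, and *SPRR1B* 11. *S100A8*, which forms calprotectin together with *S100A9*, had 0, 2 and 11 counts in Scramble and 3, 2 and 0 in LEADR-KD, and *S100A12* had 0, 11 and 4 against 0, 1 and 0. These values are at or near the limit of 3 counts a library in most libraries, and no difference between the groups was detectable at this depth. Reads that map to several copies could be lost from such families, but few of the windows of 100 bases in their annotated transcripts were shared with another gene. The share was at most 21.5% (*SPRR2A*) for the *SPRR2* genes, at most 5.50% for the *LCE* genes, and none for *FLG*, *LOR*, *S100A7* and *S100A8*, so most of each transcript was distinct at that length. In the count table *SPRR2B* overlaps *SPRR2E* (13050 positions) and *SPRR2F* (1402) on the same strand, and *LCE2B* overlaps *LCE2C* (1280). Whether reads in such overlaps were left out of the counts was not tested.

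The abundant members were S100 genes. By FPKM, which takes gene length into account, the order of the Scramble means was *S100A11* (584 ± 65.8, SD, n = 3), *S100A2* (425 ± 30.1), *S100A6* (409 ± 55.5), *S100A9* (108 ± 18.3), *S100A16* (82.4 ± 9.13), *S100A10* (44.4 ± 6.84) and *S100A14* (27.4 ± 0.615), then *S100A4* (10.5 ± 0.554), *IVL* (9.66 ± 2.53), *S100A13* (5.15), *SPRR1A* (4.23 ± 1.03), *SPRR3* (2.46 ± 0.389), *S100A3* (1.88), *S100A5* (1.64) and *S100A1* (0.252). *S100A11* ranked 34th, *S100A2* 48th and *S100A6* 53rd of the 14178 tested genes. *S100A2* and *S100A6* were neighbours whose Scramble libraries overlapped, from 400 to 458 and from 362 to 470 FPKM. In LEADR-KD they no longer did, since *S100A2* lay between 311 and 356 FPKM and *S100A6* between 191 and 221 FPKM. All members together made up 0.163%, 0.202% and 0.197% of the Scramble libraries and 0.134%, 0.152% and 0.161% of the LEADR-KD libraries, so the lowest Scramble library lay just above the highest LEADR-KD library. These shares are of all counts, mitochondrial ones included. The sums of scaled CPM were 1708, 1967 and 1846 in Scramble and 1456, 1490 and 1589 in LEADR-KD.

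**Figure D1:**
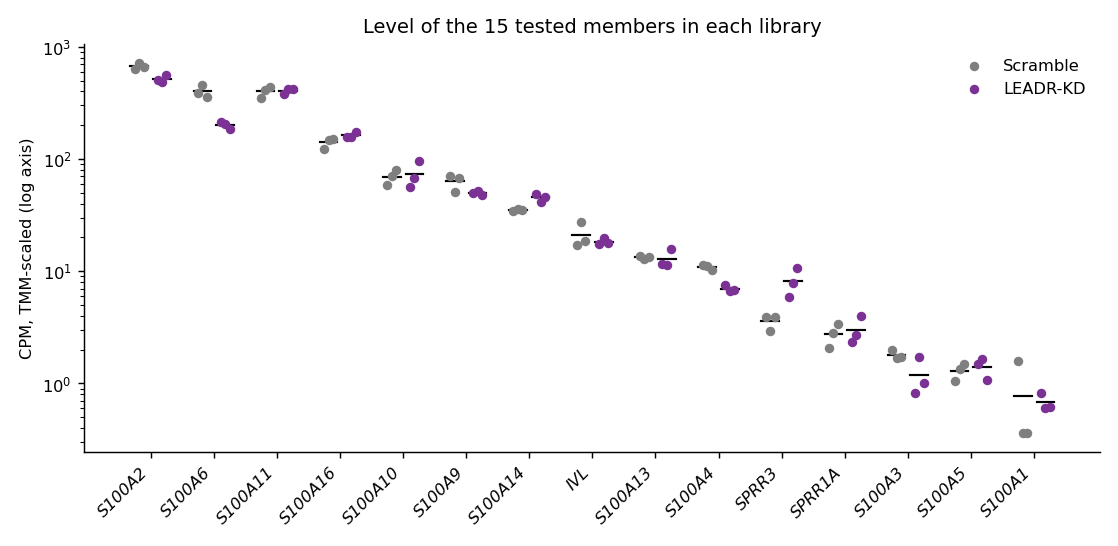
CPM of the 15 tested members on a log axis, with 1 point per library (Scramble grey, LEADR-KD purple) and a bar at each group mean. *S100A6* at 386, 460 and 356 CPM in Scramble and 214, 205 and 186 CPM in LEADR-KD is the widest gap among the abundant genes, and *SPRR3* is the low gene that stands higher in LEADR-KD.

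Upon *LEADR* knock-down 3 of the 15 tested members fell, *S100A6*, *S100A4* and *S100A2*, and 2 rose, *SPRR3* and *S100A14*, while 10 did not pass (edgeR quasi-likelihood test, Benjamini-Hochberg adjusted p under 0.05 over all 14178 genes). Of all tested genes 12.1% fell and 12.2% rose, so the count of members in either direction was near that of genes at large. The median log2 fold change of the members was -0.05, against -0.01 for all genes. The Scramble and LEADR-KD libraries did not overlap for the same 5 genes and for *S100A16*, that is for 3 members in each direction, which compares with 19.9% of all genes in each direction. The members that passed moved in both directions, and the genes that changed are described one by one, starting with the S100 genes that fell.

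*S100A6* (calcyclin, which binds the ubiquitin ligase adaptor CACYBP and annexins) was halved in level. It was at 386, 460 and 356 CPM in Scramble and at 214, 205 and 186 CPM in LEADR-KD. Every LEADR-KD library lay below every Scramble library, and LEADR-KD held 50.3% of the Scramble level (log2 fold change -0.99 ± 0.10 SE, adjusted p = 5.87e-05). The gene lies at chr1:153507075-153508720 on the minus strand. The antisense gene *BX470102.3* shares 517 bases with it but had only 53 counts in all libraries, against 31921 for *S100A6*.

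*S100A4* (metastasin, which binds non-muscle myosin heavy chain *MYH9*) was at 11.2, 11.1 and 10.2 CPM in Scramble and at 7.58, 6.60 and 6.74 CPM in LEADR-KD. The groups were apart with little spread inside either, and the level was 64.2% of Scramble (log2 fold change -0.64 ± 0.15, adjusted p = 0.0107). *S100A3*, known from the hair cuticle, lies within the span of *S100A4* on the same strand (2044 shared positions, introns included), but the transcripts of the pair shared no window of 100 bases. *S100A3* had 34, 33 and 29 counts in Scramble and 13, 31 and 18 in LEADR-KD, and its log2 fold change of -0.60 (95% interval -1.41 to 0.21) had an adjusted p of 0.272.

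*S100A2*, a gene of basal epithelial cells that is a known target of p63, took 32.9% to 37.0% of all member counts. It was at 632, 724 and 662 CPM in Scramble and at 504, 491 and 560 CPM in LEADR-KD. All LEADR-KD libraries were lower, and the level was 77.0% of Scramble (log2 fold change -0.38 ± 0.10, adjusted p = 0.0139). The call was lost without Scramble 2 (adjusted p = 0.0649) and without LEADR-KD 2 (adjusted p = 0.0676), with a fold change of the same sign. The fall of *S100A6* and *S100A4* passed without any 1 of the 6 libraries. On the chromosome the genes that fell are near neighbours, with *S100A5* between *S100A6* and *S100A4*, and *S100A3* inside the span of *S100A4*. *S100A5* itself was at 1.06 to 1.49 CPM in Scramble and 1.08 to 1.65 CPM in LEADR-KD (log2 fold change 0.12, 95% interval -0.66 to 0.90), an interval that holds both no change and the change of its neighbours *S100A4* and *S100A2*, but not that of *S100A6*.

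*S100A14* and *S100A16*, the next genes along the chromosome, encode epithelial S100 proteins that can form a mixed dimer. *S100A14* was at 34.6, 36.1 and 35.2 CPM in Scramble and at 48.6, 41.7 and 46.3 CPM in LEADR-KD. It was higher in each LEADR-KD library, at 1.29-fold of Scramble (log2 fold change 0.37 ± 0.10, adjusted p = 0.0182), although the call was lost without LEADR-KD 1 (adjusted p = 0.0560), without LEADR-KD 3 (adjusted p = 0.0558) and with library totals in place of scaling factors (adjusted p = 0.0708). *S100A16* was at 123, 149 and 152 CPM in Scramble and at 156, 158 and 173 CPM in LEADR-KD. Its groups did not overlap but the lowest LEADR-KD and the highest Scramble library were close, and its log2 fold change of 0.20 (95% interval -0.01 to 0.40) had an adjusted p of 0.159.

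*S100A9*, the other chain of calprotectin and abundant in myeloid cells and stressed epithelium, was at 70.1, 50.8 and 68.4 CPM in Scramble and at 50.1, 51.6 and 48.3 CPM in LEADR-KD. The LEADR-KD libraries were tight and Scramble 2 lay among them, with a log2 fold change of -0.34 ± 0.12 and an adjusted p of 0.0641. Without Scramble 2 the adjusted p was 0.00924 and the log2 fold change -0.47. The 14 leukocyte markers summed to 8.78 to 12.4 CPM in Scramble and 10.9 to 13.4 CPM in LEADR-KD, most of it from *ITGAM* (4.47 to 8.89 CPM against 4.68 to 8.04 CPM, adjusted p = 0.694) and *CORO1A*, which rose (2.94 to 3.39 CPM against 4.98 to 6.77 CPM, log2 fold change 0.87, adjusted p = 0.0118). Of the 14, 6 were listed at 0 in every library, including *LYZ*, *CD68*, *TYROBP* and *CD3E*, and *PTPRC* had 4 counts, all in Scramble 2. The part of such cells in the level of *S100A9* was not tested.

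The remaining S100 genes gave no call. *S100A10*, which binds no calcium and holds *ANXA2* in a tetramer, had a log2 fold change of 0.09 (95% interval -0.29 to 0.47), from 58.1, 69.9 and 79.5 CPM in Scramble and 56.3, 68.0 and 96.0 CPM in LEADR-KD. *S100A11*, a partner of *ANXA1*, was at 350, 415 and 438 CPM against 378, 423 and 422 CPM (log2 fold change 0.02, 95% interval -0.19 to 0.24). The highly expressed *S100A11* thus had an interval that leaves out a fall of the size seen for *S100A6*, *S100A4* or *S100A2*. *S100A13*, which takes part in the release of FGF1, was at 12.8 to 13.6 CPM in Scramble and 11.3 to 15.7 CPM in LEADR-KD (log2 fold change -0.05, 95% interval -0.39 to 0.29). *S100A1*, mainly a gene of heart muscle, had 27, 7 and 6 counts against 13, 11 and 11, and its interval of -1.49 to 1.16 was too wide to compare the groups. *S100A13* and *S100A1* overlap on opposite strands over 4112 bases. Since no source used here gives the strand setting for counting, their reads may not have been told apart. *S100A13* also overlaps *RP1-178F15.4* (2655 bases, 23 counts in all) and *RP1-178F15.5* (7761 bases, 0 counts) on its own strand. Of its windows of 100 bases 13.6% were shared with another gene. Whether reads of *S100A13* were left out of the counts for this reason was not tested.

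**Figure D2:**
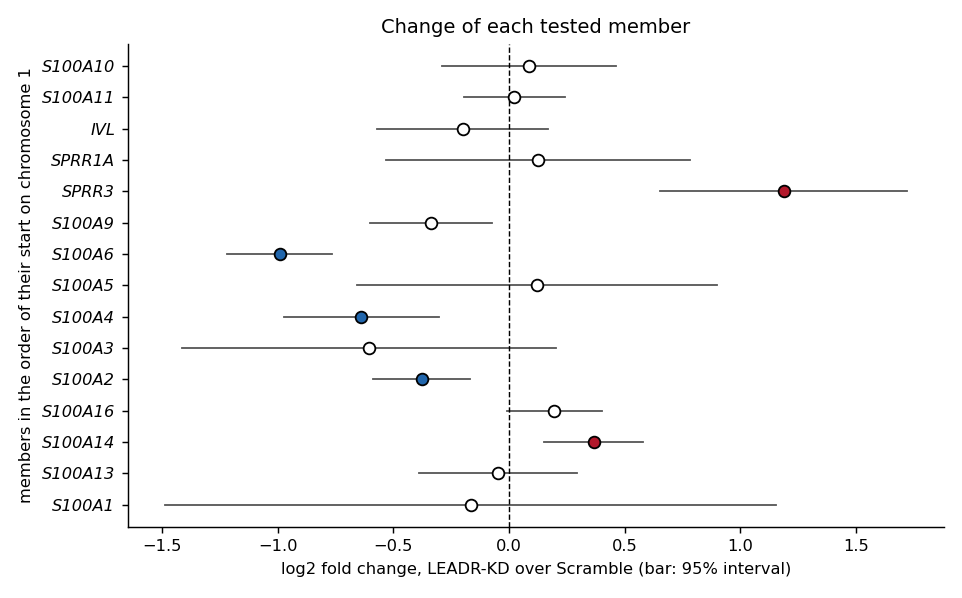
Log2 fold change of LEADR-KD over Scramble for the 15 tested members in their order on chromosome 1, with 95% intervals. Filled points passed an adjusted p of 0.05 (red higher, blue lower), open points did not. *S100A6*, *S100A4* and *S100A2* are blue, while *S100A14* beyond them and *SPRR3* are red.

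Among the cornified envelope precursors of the complex, *SPRR3* rose and the others that could be tested did not pass. *SPRR3*, a small proline-rich protein of internal squamous linings such as the oesophagus, was at 3.95, 2.93 and 3.88 CPM in Scramble and at 5.95, 7.81 and 10.6 CPM in LEADR-KD. Each LEADR-KD library lay above all Scramble libraries, at 2.28-fold (log2 fold change 1.19 ± 0.24, adjusted p = 0.00465), and the call held without any 1 library. It remained a low gene, at 5.63 ± 1.63 FPKM (SD, n = 3) in LEADR-KD. *SPRR1A*, its neighbour on the chromosome, was at 2.06, 2.82 and 3.40 CPM against 2.32, 2.70 and 4.02 CPM (log2 fold change 0.13, 95% interval -0.53 to 0.78). *IVL* was at 17.1, 27.3 and 18.7 CPM in Scramble and at 17.5, 19.7 and 17.7 CPM in LEADR-KD. Scramble 2 alone stood high, and the log2 fold change of -0.20 (95% interval -0.57 to 0.17, adjusted p = 0.440) became 0.035 without it.

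Ratios within a library show these differences without scaling between libraries. *SPRR3* over *IVL* was 0.345, 0.160 and 0.310 in Scramble and 0.507, 0.591 and 0.900 in LEADR-KD (FPKM, difference of log2 ratios 1.32), and *SPRR3* over *SPRR1A* was 0.860, 0.465 and 0.512 against 1.15, 1.30 and 1.19 (difference 1.04). *S100A6* over *S100A2* was 0.985, 1.03 and 0.868 in Scramble and 0.686, 0.673 and 0.538 in LEADR-KD (difference -0.61). The groups did not overlap in any of these ratios. With 3 against 3 libraries the smallest p of a two-sided exact permutation test is 0.1, and each of the 3 ratios reached it (adjusted p = 0.125 over the 5 pairs compared), so the design cannot pass 0.05 here. These pairs were chosen with the values of their genes known.

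The promoters of *SPRR3*, *SPRR1A*, *IVL* and *S100A2* are shown because the first rose, the last fell and the other pair did not pass, while all 4 hold a match to TGANTCA, the binding motif of AP-1 (dimers of FOS and JUN proteins), long known in squamous genes. The windows come from RefSeq promoters (GRCh38.p14, 250 bases before to 50 bases from the start), each found once by exact match on chromosome 1 of GRCh37 (hg19), whose coordinates are given. Capitals mark the motif, which reads the same on both strands.
*SPRR3*, chr1:152974044-152974072, plus strand, motif from position -170: agggtggacagTGAGTCAggcccaggtga
*SPRR1A*, chr1:152956438-152956466, plus strand, motif from position -108: ggatggtagtgTGAGTCAtgtgtgacagg
*IVL*, chr1:152880888-152880916, plus strand, motif from position -123: gatgcctgtggTGAGTCAggaaggggtta
*S100A2*, chr1:153538355-153538383, minus strand, motif from position -52: ggagtgggctgTGACTCAcaggcatgtca
The 15 tested members had 20 such promoters, of which 6 (30.0%) held TGANTCA, against 7.71% of all 35116 promoters. Besides the 4 shown, these were promoters of *S100A3* and *S100A5*. *S100A2* and *S100A5* each had another annotated promoter, which held no such match. TATAAA (the TATA box), searched on both strands, was found in 6 of the 20, those of *IVL*, *SPRR1A*, *SPRR3*, *S100A9*, *S100A4* and *S100A13*, against 11.5% of all. The promoters of *S100A6* and *S100A14* held neither motif. The motif was thus present in members that rose, fell and did not pass.

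Partners and relatives of the S100 proteins outside the complex were taken from a list of 19 genes, of which 13 were tested. Of these 2 rose, *ANXA2* and *S100PBP*, 1 fell, *ANXA11*, and 10 did not pass (median log2 fold change 0.03), beside 12.2% of all genes that rose and 12.1% that fell. *ANXA2* (annexin A2, the partner of *S100A10*) was at 633, 726 and 794 CPM in Scramble and at 1192, 1353 and 1571 CPM in LEADR-KD, with every LEADR-KD library above every Scramble library (log2 fold change 0.93 ± 0.13, adjusted p = 3.47e-04). *S100A10* itself gave no call, and the ratio of *S100A10* to *ANXA2* was 0.525, 0.551 and 0.572 in Scramble and 0.270, 0.288 and 0.349 in LEADR-KD (FPKM, difference of log2 ratios -0.87, exact permutation p = 0.1, the smallest possible, adjusted p = 0.125). *ANXA1*, the partner of *S100A11*, was at 114 to 144 CPM in Scramble and 130 to 175 CPM in LEADR-KD (log2 fold change 0.20, adjusted p = 0.254). The ratio of *S100A11* to *ANXA1* overlapped between the groups (20.5, 21.9 and 20.4 against 19.4, 20.6 and 16.2, exact permutation p = 0.3). *ANXA11*, which binds *S100A6*, fell (log2 fold change -0.29 ± 0.08, adjusted p = 0.0174), and *S100PBP*, a protein that binds *S100P*, had a log2 fold change of 0.38 ± 0.12 (adjusted p = 0.0432). The call of *ANXA11* was lost on leaving out replicate 2 or 3 of either group (adjusted p from 0.0502 to 0.0761), and that of *S100PBP* without any library but Scramble 3 (adjusted p from 0.0601 to 0.144). The other partners of *S100A6* and *S100A4* did not pass, with log2 fold changes of 0.21 for *CACYBP* (adjusted p = 0.0625) and 0.16 for *MYH9* (adjusted p = 0.315). *S100P*, an S100 gene of the urothelium outside the complex, was at 197, 229 and 226 CPM in Scramble and 177, 184 and 191 CPM in LEADR-KD (log2 fold change -0.24, adjusted p = 0.0579), and *S100B* and *S100Z* were listed at 0 in all libraries. *CACYBP*, *MYH9*, *S100P*, *S100B* and *S100Z* were singled out after their values were seen.

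**Figure D3:**
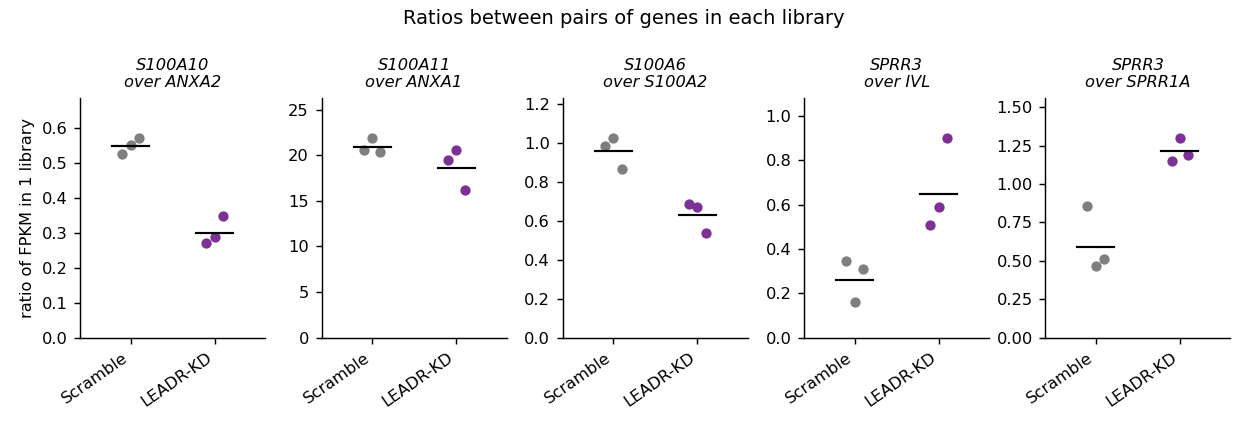
FPKM ratio of 5 pairs of genes in each library (linear axes from 0), with 1 point per library and a bar at the geometric mean of each group. The ratio of *S100A10* to *ANXA2* lies at 0.525 to 0.572 in Scramble and at 0.270 to 0.349 in LEADR-KD, whereas that of *S100A11* to *ANXA1* overlaps.

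Cornified envelope genes outside the complex were taken from a list of 32 genes, of which 13 were tested. Of these 6 rose, 1 fell and 6 did not pass, with a median log2 fold change of 0.13 against -0.01 for all genes. With 1 library left out, 4 to 5 rose. Of all tested genes 12.2% rose and 12.1% fell. *PPL* (periplakin, a plakin that links filaments to the envelope) was at 105, 112 and 108 CPM in Scramble and 203, 219 and 198 CPM in LEADR-KD (log2 fold change 0.93 ± 0.08, adjusted p = 1.25e-05), the most distinct groups of the list. *ABCA12*, a lipid transporter of lamellar granules, had a log2 fold change of 1.29 ± 0.29 (adjusted p = 0.00698), and *SPINK5*, an inhibitor of the skin kallikreins, one of 0.80 ± 0.20 (adjusted p = 0.0152). The desmosomal genes *PKP3* and *DSP* had log2 fold changes of 0.46 ± 0.08 (adjusted p = 0.00168) and 0.37 ± 0.12 (adjusted p = 0.0379), and the keratin gene *KRT10*, outside the naming rule and given to complete the 6, one of 0.33 (adjusted p = 0.0476). *KRT10* was not followed under the alternatives. The call of *DSP* was lost on leaving out LEADR-KD 1, LEADR-KD 2, Scramble 2 or Scramble 3 (adjusted p from 0.0958 to 0.136) and that of *SPINK5* without LEADR-KD 1 (adjusted p = 0.0530). *CSTA* (cystatin A, a protease inhibitor and envelope precursor) fell, from 50.8, 55.6 and 48.2 CPM to 39.4, 37.0 and 34.4 CPM (log2 fold change -0.48 ± 0.10, adjusted p = 0.00485). The cross-linking enzyme *TGM1*, named after its value was seen, was at 1.24, 1.54 and 3.16 CPM in Scramble and 0.814, 0.550 and 1.08 CPM in LEADR-KD (log2 fold change -1.27 ± 0.45, adjusted p = 0.0625). *TGM3*, *TGM5*, *KRT1*, *CDSN*, *KLK5*, *KLK7* and *ALOX12B* were at 0 in every library, as were most members of the complex.

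Transcription factors known to act on squamous genes were taken from a list of 35, of which 34 were tested. Of these 10 fell, 3 rose and 21 did not pass, with a median log2 fold change of -0.18 against -0.01 for all genes, of which 12.1% fell and 12.2% rose. The 5 largest falls were those of *SATB1*, a chromatin organiser of the complex in keratinocytes (log2 fold change -1.08 ± 0.17, adjusted p = 7.76e-04), *RARG*, the retinoic acid receptor gamma (-1.08 ± 0.09, adjusted p = 1.09e-05), the AP-1 gene *FOSL2* (-0.87 ± 0.08, adjusted p = 2.88e-05), *POU3F1* (-0.80 ± 0.21, adjusted p = 0.0179) and *ARNT*, the partner of the aryl hydrocarbon receptor (-0.78 ± 0.12, adjusted p = 6.44e-04). *FOSL2* was at 379, 370 and 366 CPM in Scramble and 215, 209 and 185 CPM in LEADR-KD, while *RARG* was at 93.4, 105 and 108 CPM against 46.2, 48.7 and 50.2 CPM. Both pairs of groups were wide apart. The genes that rose were *JUN* (0.73 ± 0.21, adjusted p = 0.0254), *KLF4*, a barrier factor (0.67 ± 0.18, adjusted p = 0.0174), and *JUNB* (0.51 ± 0.15, adjusted p = 0.0294). The AP-1 subunits thus moved in both directions. *JUN* was at 21.3, 27.2 and 29.8 CPM in Scramble and 28.1, 53.8 and 47.3 CPM in LEADR-KD, so that LEADR-KD 1 lay among the Scramble libraries. The call of *JUN* was lost on leaving out LEADR-KD 2, LEADR-KD 3, Scramble 1 or Scramble 2 (adjusted p from 0.0609 to 0.126), that of *JUNB* without Scramble 1, LEADR-KD 2 or LEADR-KD 3 (0.0658 to 0.140), that of *KLF4* without Scramble 2, LEADR-KD 2 or LEADR-KD 3 (0.0501 to 0.0747), and that of *POU3F1* without Scramble 1 or LEADR-KD 1 (0.0515 and 0.0536). *TP63*, the gene of p63, was at 219, 232 and 223 CPM in Scramble and 199, 203 and 184 CPM in LEADR-KD, lower in each library but not past the threshold (log2 fold change -0.20 ± 0.08, adjusted p = 0.0797).

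**Figure D4:**
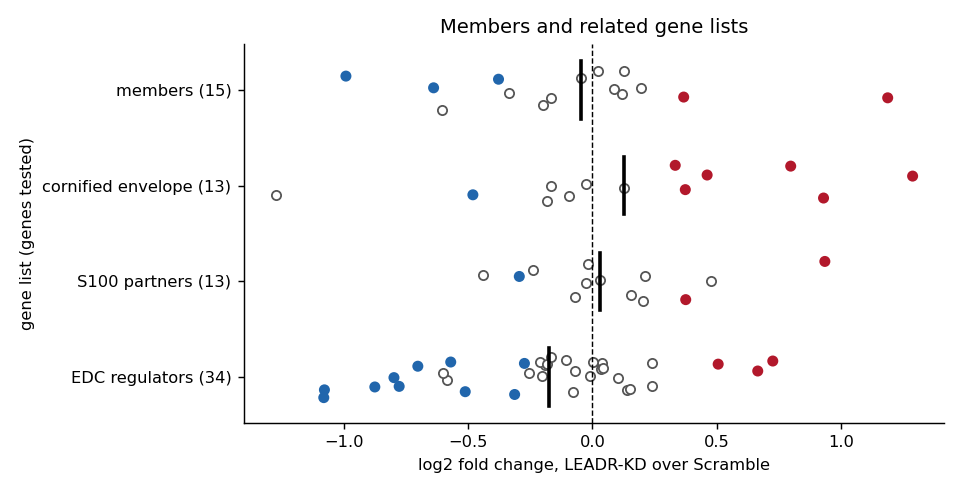
Log2 fold change of LEADR-KD over Scramble for the tested members and for the 3 related lists, with 1 point per gene (height within a band is arbitrary), the median as a black bar, and filled points for an adjusted p under 0.05. The medians lie at -0.05 for the members, 0.13 for the cornified envelope list, 0.03 for the S100 partners and -0.18 for the regulators.

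Other genes of the same stretch of chromosome 1 gave little to compare. Between the first and the last member the table holds 35 further genes, of which 5 had any count and 0 passed the filter. With no filter edgeR tested these 5, and 0 had an adjusted p under 0.05 or an unadjusted p under 0.05 (lowest adjusted p = 0.462). Within 500 kb outside the stretch, a window chosen after the values of the members were seen, 19 genes were tested, of which 1 was higher and 5 were lower (median log2 fold change -0.11), against 12.2% and 12.1% of all genes and a median of -0.01.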

How the data were processed

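Poly(A) RNA of RT4 cells was measured in 3 Scramble and 3 LEADR-KD libraries, grouped by the submitters' labels. The authors deposited raw gene counts. Tools in the submitters' processing notes are HISAT2 2.0.5, featureCounts 1.5.0-p3 and the build hg19, whereas Salmon appears in the paper's methods, and the strand setting was not given in any source. They also deposited FPKM values, the counts divided by gene length and by a constant per library, used here for levels and ratios, and a table of their own comparison by DESeq2 1.20.0 (fold changes and p-values), which was not used. Reads were not processed again.

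Of 57905 genes 25957 had any count and 14178 passed filterByExpr (minimum count 10). All were fitted at once by edgeR 4.0.16 (R 4.3.3; TMM scaling, quasi-likelihood test, no covariate), with Benjamini-Hochberg adjustment over the 14178 and a threshold of 0.05. The steps were tested on simulated data. CPM values are TMM-scaled, ± is the SE of a log2 fold change or the SD of a level, as marked, intervals are at 95%, and the SE is the fold change divided by the square root of F. Totals of 15706033 to 18960822 counts set the precision (3 counts being 0.154 to 0.188 CPM), and intervals cover the spread between libraries only. The paper's methods speak of biological replicates for this sequencing. No source says whether these came from separate cultures, so p-values cover only the spread among these 6 samples. Libraries of a group differed by more than sampling noise (chi-square of 8.15 or more per gene).

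The members and lists were chosen with earlier results of these data known. Named are every member with a count, *MIR205HG*, *ANXA2*, *ANXA1*, *TP63* and, per list and direction, up to 5 genes past the threshold with the largest change. All 52 gene IDs were found in GENCODE v44lift37 at overlapping positions on the same strand (*LOR* as LORICRIN). Seed matches, shared windows and motifs were counted in that annotation and in the RefSeq promoter table. Of the marker lists for other cells, the fibroblast list summed to 26.4 to 32.1 CPM in Scramble and 18.4 to 25.7 CPM in LEADR-KD. The endothelial list summed to 7.28 to 10.4 CPM and 2.89 to 4.68 CPM. These sums were mostly *COL3A1* and *VWF*, with *DCN*, *PDGFRA* and *KDR* at 0. Of the 2 fibroblast markers tested 0 passed. The 1 endothelial marker tested fell (log2 fold change -1.16), as did 12.1% of all tested genes. The part of such cells in the results was not tested. Alternatives were DESeq2 1.42.0, limma 3.58.1 on log2(FPKM + 1) and log2(FPKM + 0.1), other scalings and filters, a replicate block and leaving out libraries.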

Additional observations from a re-analysis of the deposited data

How the results depend on the processing

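Under the 16 alternatives, *S100A6* (log2 fold change -1.07 to -0.88), *S100A4* (-0.70 to -0.56), *SPRR3* (0.91 to 1.44), *MIR205HG* (-1.82 to -1.13) and *ANXA2* (0.83 to 1.03) kept their direction and their call, and so did 14 of the 35 named genes in all, counting those without a call. Of the members, 1 to 3 were called higher and 2 to 4 lower. The higher count was 1 with library totals, and 1 to 2 with 1 library left out, and 1 without both libraries numbered 1, which hold the largest mitochondrial share (chosen after seeing the data), with 3 still lower. *S100A2* also missed the threshold by limma (adjusted p = 0.0527 and 0.0512), and *S100A9* passed with no filter (adjusted p = 0.0321).

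Signs turned only for members without a call. *S100A11* was -0.023 with library totals and -0.017 without both libraries numbered 1, which also turned *S100A13* (0.033), *S100A5* (-0.053) and *S100A1* (0.76). *S100A1* was 0.067 by limma on log2(FPKM + 0.1), and gave no value with a mean of at least 1 CPM. With 1 library left out the ranges were -0.063 to 0.092 (*S100A11*), -0.15 to 0.25 (*S100A10*), -0.33 to 0.035 (*IVL*), -0.21 to 0.042 (*S100A13*), -0.14 to 0.30 (*SPRR1A*), -0.0088 to 0.29 (*S100A5*) and -0.52 to 0.91 (*S100A1*).

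Of the lists, the cornified envelope genes called lower were 2 by DESeq2 and 2 with no filter, and 1 to 2 with 1 library left out. Those called higher were 4 to 5 with 1 library left out. The S100 partners called higher were 1 with library totals, 1 by limma on log2(FPKM + 0.1), 1 without both libraries numbered 1 and 1 to 2 with 1 library left out, and those called lower were 2 with a mean of at least 1 CPM, 2 without both libraries numbered 1 and 0 to 2 with 1 library left out. The regulators called higher were 1 with library totals, 1 by limma with either pseudocount, and 0 to 3 with 1 library left out. Of the genes between the members, 5 were tested with no filter and 1 (*BX470102.3*) without LEADR-KD 1 or LEADR-KD 3, with 0 calls and 0 at an unadjusted p under 0.05 by edgeR, and 0 were tested otherwise. The cause of these shifts was not tested.

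Scramble and LEADR-KD libraries with the same number deviated together with r = 0.227, 0.000580 and 0.266 across genes, which are not independent replicates. Libraries with different numbers ranged from -0.296 (Scramble 3 with LEADR-KD 1) to 0.0755 (Scramble 3 with LEADR-KD 2). The same-number value was the highest for the libraries numbered 1 and 3, whereas Scramble 2 correlated more with LEADR-KD 1 (0.0332). The main fit did not take the numbers as pairs, and whether the libraries are paired was not settled. With the replicate number as a block, all genes called went from 1736 to 2489 higher and from 1719 to 2365 lower, members to 3 higher and 4 lower, cornified envelope genes to 2 lower, and S100 partners to 5 higher and 2 lower. *S100A16* (adjusted p = 0.0390), *S100A9* (0.0163), *ANXA1* (0.0362) and *TP63* (0.0292) then passed, and *S100A1* was 0.036. Library totals moved the median of all genes from -0.01 to -0.06 and the calls to 1085 higher and 1553 lower. With no filter 25957 genes entered the test.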
